A study of Homo sapiens with 42 samples.

Results

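The genes described here are BCR and ABL1, the parents of the BCR-ABL1 fusion, and 8 partners that carry its signal (GAB2, GRB2, CRKL, SHC1, STAT5A, STAT5B, JAK2 and PTPN11). They were taken by symbol, 10 of 58243 gene IDs in each count table, and all 10 passed the filter on low counts in both RNA fractions. The cells were K562, a single established line from chronic myeloid leukaemia, so each group is a set of cultures of that line. Cells were left untreated (CTRL) or received 1 μM imatinib (IM) for 1, 6 or 18 h, 5 μM JTE-607 (JTE) for 1, 6 or 18 h, or 110 mM KCl for 1 or 3 h. Imatinib inhibits the ABL1 kinase, JTE-607 acts on the nuclease CPSF73 that cuts new transcripts at their 3′ ends, and KCl gives an osmotic shock. Poly(A) RNA from whole cells (mRNA) was sequenced in all 9 of these groups. Nuclear RNA, depleted of ribosomal RNA, was sequenced in 5 of them (CTRL, IM 1h, IM 18h, JTE 1h and KCl 1h). Every group had 3 libraries, labelled as biological replicates.

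BCR-ABL1 arises when the start of BCR is joined to the kinase-bearing end of ABL1, and the fusion kinase is always active. It recruits GRB2 and, through it, the docking protein GAB2 and the phosphatase SHP2 (made by PTPN11), which opens the RAS and PI3 kinase routes. SHC1 and CRKL are further adaptors that the kinase phosphorylates. STAT5A and STAT5B are transcription factors activated by the fusion kinase, and in normal blood cells by JAK2 below cytokine receptors. All of this runs through protein phosphorylation, which RNA counts do not measure.

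A count row joins all transcripts of a gene, so reads of the fusion and of the normal alleles fall in the same BCR and ABL1 rows and cannot be told apart here. BCR lies on chr22:23179704-23318037 and ABL1 on chr9:130713946-130887675, both on the plus strand of GRCh38. STAT5A (chr17:42287547-42311943, plus strand) and STAT5B (chr17:42199168-42276707, minus strand) are neighbours that point away from each other. JAK2 spans chr9:4984390-5128183 on the plus strand and GAB2 spans chr11:78215297-78418348 on the minus strand. Some reads could not be counted. Alignments across introns over 10000 bases were not allowed, and the canonical transcripts hold 3 such introns of 22 in BCR, 1 of 10 in ABL1, 3 of 9 in GAB2, 3 of 24 in JAK2, 1 of 18 in STAT5B and 0 of 18 in STAT5A. CRKL holds 2 of 2, GRB2 2 of 5, PTPN11 3 of 15 and SHC1 0 of 11. STAT5A and STAT5B share stretches of exon: 4.42% of the 100-base windows in STAT5A exons recur exactly in STAT5B, and 3.62% of those in STAT5B recur in STAT5A. Only uniquely mapped reads were kept, and how many reads of such windows were lost was not measured.

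The letters upstream of the start sites are shown for BCR, whose promoter drives the fusion, and for the 4 partners whose RNA changed in the comparisons that follow. They are the 250 bases before the RefSeq start nearest the 5′ end of the counted gene in GRCh38.p14, written 5′ to 3′ on the gene's own strand. JAK2 has 4 listed starts, STAT5A 3 and GAB2 2, and only the nearest was searched. The BCR start used lies 805 bases inside the counted gene. Capitals mark the GC box GGGCGG on either strand, the sequence bound by SP-family factors.
BCR: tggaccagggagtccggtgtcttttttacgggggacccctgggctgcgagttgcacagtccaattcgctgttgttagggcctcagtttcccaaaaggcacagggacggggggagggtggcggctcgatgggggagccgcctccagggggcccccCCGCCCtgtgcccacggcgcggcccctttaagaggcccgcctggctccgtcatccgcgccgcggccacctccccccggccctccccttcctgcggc
STAT5A: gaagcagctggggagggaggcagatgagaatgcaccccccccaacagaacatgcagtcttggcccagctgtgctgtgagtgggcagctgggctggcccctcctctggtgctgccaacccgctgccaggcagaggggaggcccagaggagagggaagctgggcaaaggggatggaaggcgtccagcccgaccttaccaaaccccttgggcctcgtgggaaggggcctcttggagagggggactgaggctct
STAT5B: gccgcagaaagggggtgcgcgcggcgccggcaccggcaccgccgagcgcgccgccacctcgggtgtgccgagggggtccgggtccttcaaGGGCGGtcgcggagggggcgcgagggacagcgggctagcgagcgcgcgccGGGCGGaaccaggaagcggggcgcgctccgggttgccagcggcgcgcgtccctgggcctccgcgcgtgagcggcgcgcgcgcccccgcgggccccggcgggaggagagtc
JAK2: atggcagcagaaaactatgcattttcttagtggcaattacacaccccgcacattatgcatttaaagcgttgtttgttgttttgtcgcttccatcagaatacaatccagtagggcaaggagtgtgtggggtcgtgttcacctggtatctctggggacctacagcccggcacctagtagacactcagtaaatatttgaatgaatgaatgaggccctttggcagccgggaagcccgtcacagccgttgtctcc
GAB2: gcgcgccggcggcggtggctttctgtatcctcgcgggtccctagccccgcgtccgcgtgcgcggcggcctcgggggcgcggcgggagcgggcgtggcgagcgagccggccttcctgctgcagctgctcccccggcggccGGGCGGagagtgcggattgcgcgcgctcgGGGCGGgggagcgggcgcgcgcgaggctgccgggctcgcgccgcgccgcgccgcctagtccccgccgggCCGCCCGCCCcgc
These windows are chr22:23180259-23180508, chr17:42287297-42287546, chr17:42276392-42276641, chr9:4984140-4984389 and chr11:78417821-78418070 in the same order. GAB2 held 4 GC boxes, of which a pair overlap. STAT5B held 2 and BCR 1, and neither STAT5A nor JAK2 held one. Of 35116 listed human start sites, 42.6% had a GC box in a window of this length. GC content was 84% for GAB2, 82% for STAT5B, 70.8% for BCR, 65.6% for STAT5A and 48.4% for JAK2, against a median of 58% over all start sites. The STAT element TTCNNNGAA (6.57% of all start sites), the GATA element AGATAA (9.17%) and the E-box CACGTG (6.34%), searched on both strands, had no match in the 9 genes with an entry, and the ETS core CCGGAAG (8.52%) matched in SHC1 only. A match or its absence says only which letters stand in this window. Other listed starts were not searched, and the ABL1 window lay 121308 bases from the 5′ end of the counted gene.

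Levels are given as CPM, a gene's counts scaled to a common library total, on library sizes scaled within a fraction by TMM, so the mRNA and nuclear levels are set side by side and were not tested against each other. The smallest mRNA library summed to 16439848 counts and the largest to 62953314, while nuclear libraries summed to between 16175394 and 25103205. K562 identity was checked on 8 erythroid and blood markers, which lay at 74.4 CPM or more in the untreated mRNA libraries, and on 9 markers of T cells, B cells, epithelium, hepatocytes and fibroblasts. Of these, 8 lay at 8.33 CPM or less there, while EPCAM lay at 86.8 to 95.1 CPM. CPM is a share of a library, so RNA per cell and a change in total RNA cannot be told apart.

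In untreated cells the adaptor CRKL had the highest level per length, at 124 ± 6.46 CPM per kb of exon in mRNA (SD, n = 3), followed by STAT5A at 85.2 ± 7.76. PTPN11 (53.5 ± 2.03), ABL1 (49.7 ± 6.05), STAT5B (41.3 ± 6.39) and GRB2 (38.5 ± 1.32) came next, and each of these overlapped its neighbour in the order. SHC1 at 15.1 ± 1.23, BCR at 11.6 ± 0.499, GAB2 at 10.2 ± 1.14 and JAK2 at 10.0 ± 1.57 CPM per kb closed the list, and only GAB2 and JAK2 overlapped each other. In nuclear RNA the first places were again CRKL (142 ± 9.28 CPM per kb) and STAT5A (122 ± 6.19), and ABL1 (75.1 ± 6.15) stood above STAT5B (47.1 ± 3.09) and PTPN11 (41.4 ± 4.88). BCR, at 24.5 ± 2.50 CPM per kb, stood above SHC1 (20.1 ± 0.444) in the nucleus, the reverse of their order in mRNA. The length counts all exon bases of a gene's row, 12389 in BCR and 5325 in CRKL. Reads lost over long introns were not corrected for in this order.

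**Figure D1:**
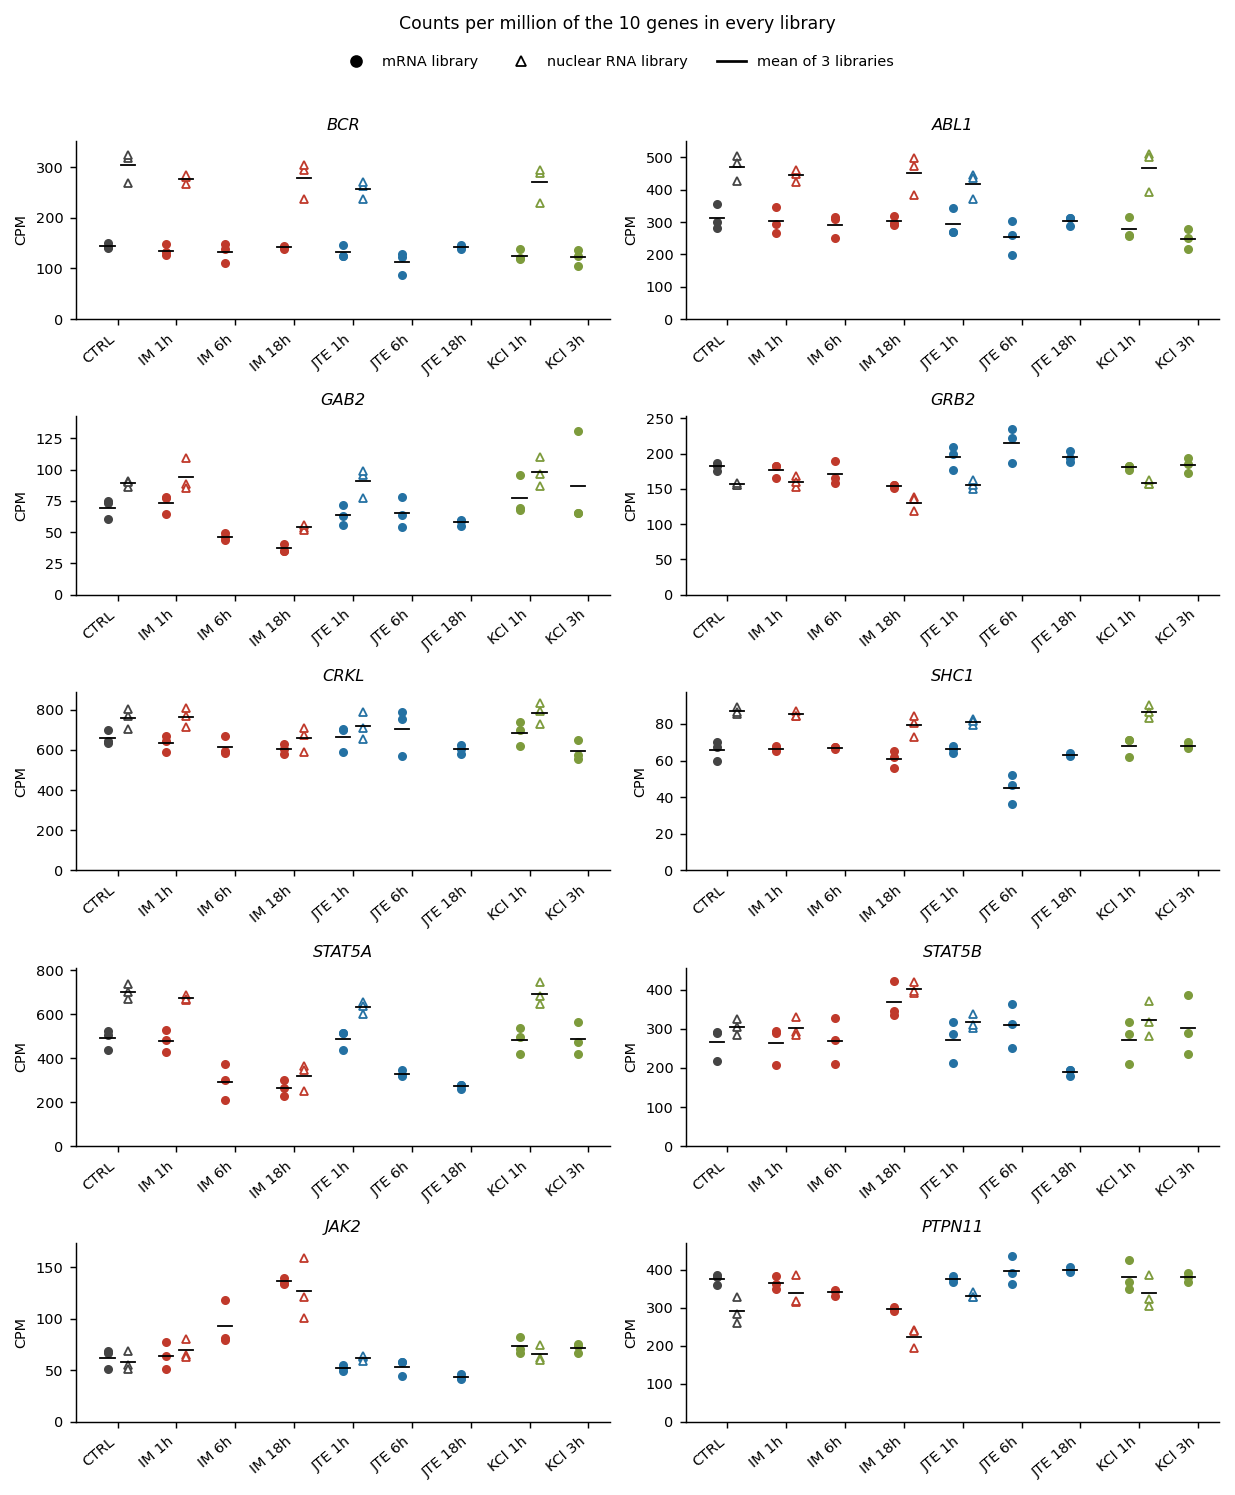
CPM (y axis, linear from 0) of the 10 genes in each library, by treatment group (x axis). Filled circles are mRNA libraries, open triangles nuclear RNA libraries and bars the mean of 3 libraries. JAK2 mRNA reached 134 to 139 CPM in IM 18h against 50.9 to 68.7 in CTRL, while BCR and ABL1 mRNA in IM 18h overlapped CTRL.

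BCR and ABL1 themselves were not called in any of the 23 comparisons. A gene was called when its Benjamini-Hochberg adjusted p in edgeR's quasi-likelihood test was under 0.05 and its log2 fold change was beyond 0.6 in either direction. BCR mRNA stood at 142, 140 and 151 CPM in the CTRL libraries and at 142, 138 and 145 CPM in the IM 18h libraries, so the groups overlapped. The log2 fold change was -0.03 ± 0.127 (SE, adjusted p = 0.881). ABL1 mRNA stood at 283, 299 and 355 CPM in CTRL and at 298, 292 and 318 CPM in IM 18h, a log2 change of -0.04 ± 0.142 (adjusted p = 0.830). The nuclear values after 18 h of imatinib were likewise close to CTRL, with log2 changes of -0.12 ± 0.113 for BCR and -0.06 ± 0.114 for ABL1.

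JTE 6h was the group in which BCR came nearest to a call. Its libraries held 87.3, 122 and 128 CPM, all below the CTRL libraries, with a log2 change of -0.36 ± 0.127 and an adjusted p of 0.0522. With the replicate number as a block, the BCR change was -0.365 with an adjusted p of 0.0176. It was still short of the fold threshold, and the mRNA CTRL numbers are in doubt. ABL1 in JTE 6h held 197, 261 and 304 CPM, which overlapped CTRL, with a log2 change of -0.30 ± 0.142 (adjusted p = 0.162). In both genes the first JTE 6h library was the lowest. In mRNA, KCl 3h gave the next largest estimate for BCR, -0.245 ± 0.127 (adjusted p = 0.223). For ABL1 it gave the largest, -0.33 ± 0.142 (adjusted p = 0.130), with libraries at 251, 278 and 216 CPM, all below CTRL. With the replicate number as a block, the ABL1 change was -0.31 with an adjusted p of 0.0494, though the mRNA CTRL numbers are in doubt. In nuclear RNA the largest estimate for BCR was in JTE 1h, where the libraries held 237, 262 and 271 CPM against 268, 318 and 324 CPM in CTRL and the groups overlapped. The log2 change was -0.24 ± 0.113 (adjusted p = 0.218), and with the replicate number as a block it was -0.24 with an adjusted p of 0.0106, still short of the fold threshold.

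The ratio of BCR to ABL1 counts within a library does not depend on library size. It was 0.502, 0.468 and 0.426 in the CTRL mRNA libraries. Across the 8 treated mRNA groups the log2 ratio differed from CTRL by -0.06 to 0.08, and every treated group overlapped CTRL. In nuclear RNA the KCl 1h libraries had a log2 ratio of -0.79 ± 0.0256 (SD, n = 3) against -0.64 ± 0.0555 in CTRL, a difference of -0.15, and the groups did not overlap. The exact 2-sided permutation p was 0.1, the smallest that 3 against 3 libraries can give, and 0.3 after adjustment over the 24 ratio tests. Nuclear IM 18h did not overlap CTRL either, with a difference of -0.06 and the same p. In both of these nuclear groups the ratio was lower in all 3 same-numbered pairs (exact sign-flip p = 0.25, the smallest that 3 pairs can give).

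Over the 9 mRNA group means, the profile of BCR resembled those of TSSC2 (Pearson's r = 0.941), RNF32-DT (0.939) and ABL1 (0.934), out of 8719 genes averaging at least 10 CPM. ABL1 most resembled ZNF587 (0.981), SLC25A16 (0.948) and CSTF2T (0.944). Both genes varied little, 1.27-fold between the lowest and the highest group mean for BCR and 1.26-fold for ABL1, and the points share libraries and scaling, so these values are a description.

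The partners did change, in 3 genes against CTRL. Imatinib for 18 h lowered STAT5A and GAB2 and raised JAK2, in mRNA and in nuclear RNA alike, and STAT5A was also lower in mRNA after 6 h of imatinib and 18 h of JTE-607. Counted by comparison, 1 of 10 members was called in mRNA IM 6h against 9.94% of all genes tested, 3 of 10 in mRNA IM 18h against 30.5%, and 3 of 10 in nuclear IM 18h against 32.6%. In JTE 18h 1 of 10 was called against 5.39% of all genes. These are the comparisons with CTRL that had a call. Among them, apart from JTE 18h, where 1 gene makes the share, the members were called about as often as genes in general. In the other comparisons with CTRL 0 of 10 were called, against up to 23.8% of all genes (nuclear KCl 1h). The median log2 change of the 10 members was -0.12 in mRNA IM 18h and -0.17 in nuclear IM 18h, beside 0.04 and 0.00 over all genes tested.

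**Figure D2:**
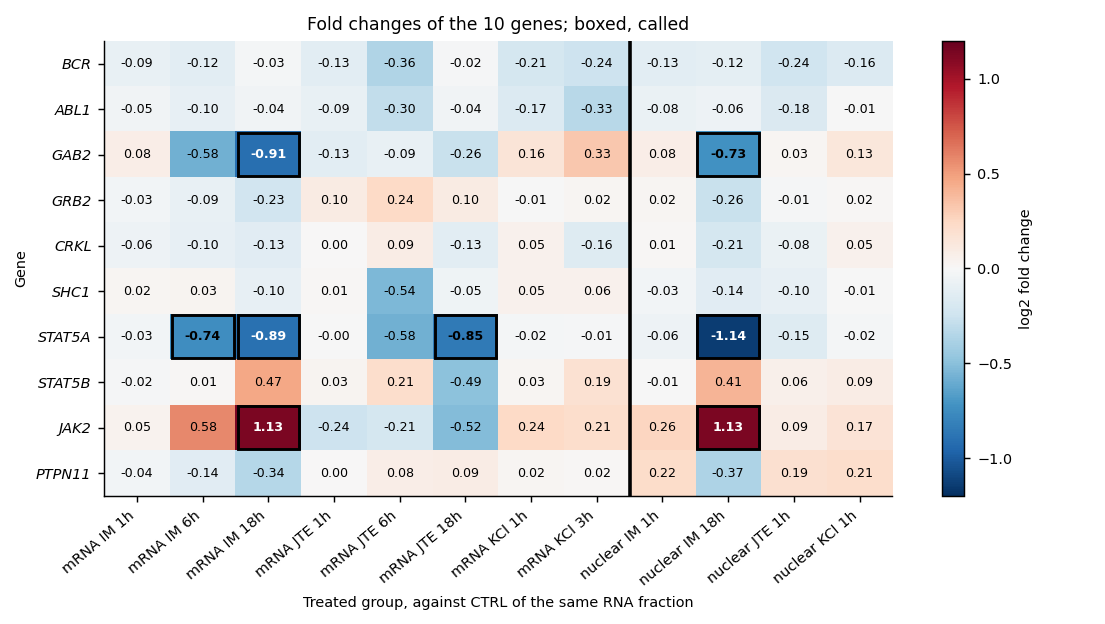
Log2 fold change (colour and printed value) of each gene (rows) in each treated group against CTRL of the same RNA fraction (columns). Boxes mark calls, at adjusted p under 0.05 and a log2 change beyond 0.6. Boxes fall on STAT5A in mRNA IM 6h, IM 18h and JTE 18h and in nuclear IM 18h. The only other boxes are on GAB2 and JAK2, in mRNA and nuclear IM 18h.

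Among the transcription factors, STAT5A mRNA stood at 439, 523 and 507 CPM in CTRL. It stood at 372, 209 and 299 CPM in IM 6h and at 230, 263 and 299 CPM in IM 18h. All imatinib libraries of 6 and 18 h lay below all CTRL libraries. The log2 fold change was -0.74 ± 0.150 (SE) at 6 h (adjusted p = 0.00143) and -0.89 ± 0.150 at 18 h (adjusted p = 4.83e-05), which is 0.539 times the CTRL level. Without the second IM 6h library, the lowest of its group, the 6 h change was -0.58, short of the fold threshold.

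JTE-607 gave STAT5A levels of 346, 320 and 321 CPM at 6 h and 279, 261 and 276 CPM at 18 h, again all below CTRL. The change at 6 h, -0.58 ± 0.150 (adjusted p = 0.00768), was short of the fold threshold, and it passed that threshold without low-count filtering (-0.63), without the first CTRL library (-0.65) or without the first JTE 6h library (-0.62). At 18 h it was called at -0.85 ± 0.150 (adjusted p = 0.000711). Imatinib and JTE-607 at the same time did not differ detectably for STAT5A, with a log2 difference of -0.17 ± 0.149 at 6 h and -0.04 ± 0.150 at 18 h. In nuclear RNA, STAT5A fell from 667, 738 and 700 CPM in CTRL to 249, 363 and 346 CPM in IM 18h, a log2 change of -1.14 ± 0.111 (adjusted p = 9.38e-08).

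STAT5B had no call against CTRL. Its mRNA stood at 219, 291 and 290 CPM in CTRL and at 423, 345 and 336 CPM in IM 18h. Every IM 18h library was above every CTRL library, but the log2 change of 0.47 ± 0.201 had an adjusted p of 0.0641. The JTE 18h libraries held 194, 180 and 194 CPM, all below CTRL, with a log2 change of -0.49 ± 0.201 (adjusted p = 0.138). With the replicate number as a block, the adjusted p was 0.00804 in IM 18h (log2 change 0.46) and 0.0154 in JTE 18h (-0.50). Both changes were still short of the fold threshold, and the mRNA CTRL numbers are in doubt. Nuclear STAT5B stood at 284, 324 and 304 CPM in CTRL and at 419, 391 and 398 CPM in IM 18h, again without overlap. That change passed the adjusted p, at 0.00248, and not the fold threshold, at 0.41 ± 0.101.

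The direct comparison of the treatments separated STAT5B most clearly at 18 h. Its level was higher in IM 18h than in JTE 18h by 0.96 ± 0.203 on the log2 scale (adjusted p = 0.000572). It was also lower in JTE 18h than in JTE 6h, whose libraries held 313, 252 and 363 CPM, by a log2 difference of -0.71 ± 0.202 (adjusted p = 0.0144). That last call was lost without the second JTE 18h library (adjusted p = 0.0501) or without the third JTE 6h library (adjusted p = 0.0761).

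**Figure D3:**
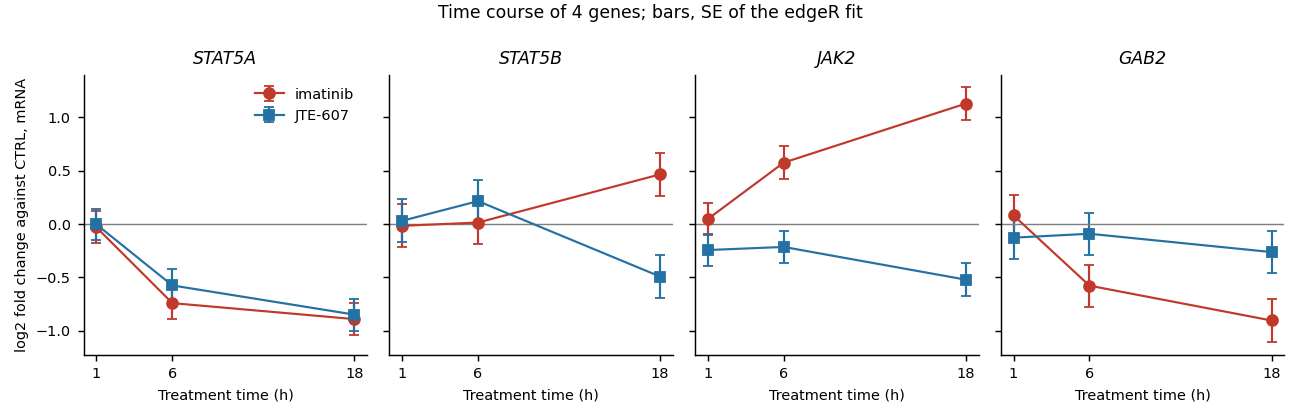
Log2 fold change of STAT5A, STAT5B, JAK2 and GAB2 mRNA against CTRL (y axis) at 1, 6 and 18 h (x axis) of imatinib (red circles) and JTE-607 (blue squares). Bars are SE of the edgeR fit, and all points share the 3 CTRL libraries. STAT5A falls under both agents, to -0.89 and -0.85 at 18 h, while JAK2 ends at 1.13 under imatinib and -0.52 under JTE-607.

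The balance of the STAT5 genes was read as a ratio within each library. The CTRL mRNA libraries held 2.01, 1.80 and 1.75 STAT5A counts per STAT5B count, and the IM 18h libraries held 0.543, 0.762 and 0.891. The log2 ratio was -0.48 ± 0.365 (SD, n = 3) in IM 18h and 0.89 ± 0.104 in CTRL, a difference of -1.37. The nuclear libraries went from 2.35, 2.28 and 2.31 in CTRL to 0.595, 0.930 and 0.870 in IM 18h, a difference of -1.56 in the log2 ratio. Both differences had an exact 2-sided permutation p of 0.1, the smallest that 3 against 3 libraries can give, and 0.3 after adjustment over the 24 tests. Paired by replicate number, the nuclear ratio was lower in all 3 pairs (exact sign-flip p = 0.25, the smallest that 3 pairs can give). STAT5B thus had more counts than STAT5A in all 6 of these IM 18h libraries and in none of the 6 untreated ones. STAT5B has more exon bases, 6447 against 5754. Per kb of exon, the second nuclear IM 18h library still held more STAT5A (63.1 CPM per kb) than STAT5B (60.6). The third IM 18h libraries were near level, at 52 and 52.1 in mRNA and 60.2 and 61.8 in nuclear RNA. In the remaining IM 18h libraries STAT5B was higher per kb.

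The ratio was also lower than CTRL, without overlap, in IM 6h (log2 difference -0.78), JTE 6h (-0.78), JTE 18h (-0.37) and nuclear JTE 1h (-0.21). Each of these had an exact 2-sided permutation p of 0.1, the smallest the design allows, and 0.3 after adjustment over the 24 tests. The nuclear JTE 1h ratio was lower in all 3 same-numbered pairs (exact sign-flip p = 0.25). In IM 1h, JTE 1h, KCl 1h and KCl 3h mRNA the groups overlapped CTRL, with differences of -0.01, -0.03, -0.04 and -0.19. Nuclear IM 1h (-0.05) and nuclear KCl 1h (-0.11) overlapped CTRL too. The ratio was lower in all 3 same-numbered pairs of nuclear KCl 1h (exact sign-flip p = 0.25) and in 2 of 3 of nuclear IM 1h. One KCl 3h library, the third, held 1.09 STAT5A counts per STAT5B count while the others of that group held 1.95 and 2.01.

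**Figure D4:**
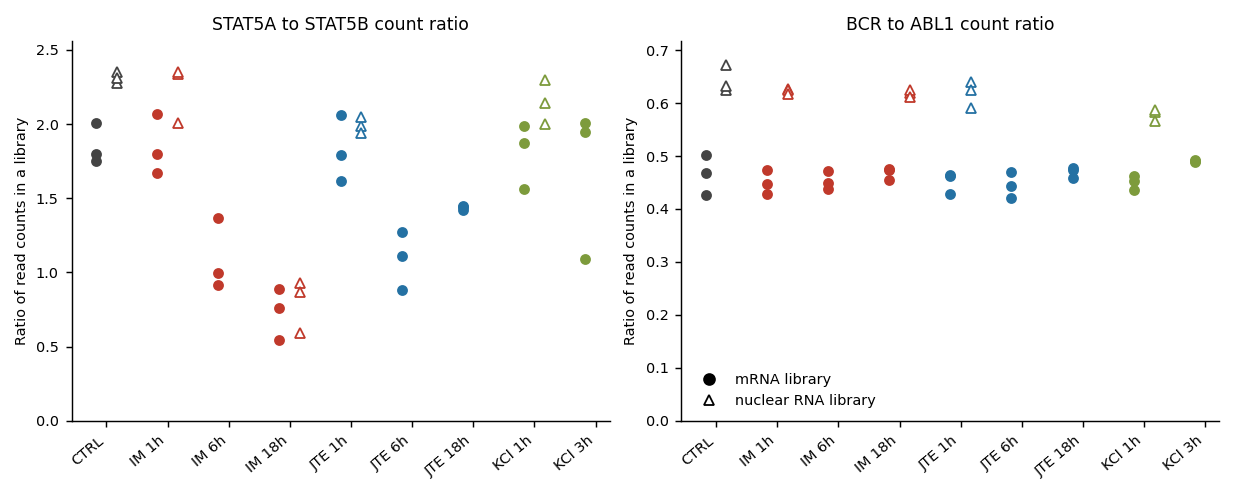
Ratio of STAT5A to STAT5B counts (left) and of BCR to ABL1 counts (right) within each library (y axes, linear from 0), by treatment group (x axes). Filled circles are mRNA and open triangles nuclear RNA libraries. The STAT5 ratio is 1.75 or more in all untreated libraries and below 1 in all IM 18h libraries, while the BCR to ABL1 ratio stays between 0.421 and 0.502 in mRNA.

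JAK2, the kinase that normally activates STAT5 below cytokine receptors, rose under imatinib. Its mRNA stood at 50.9, 66.4 and 68.7 CPM in CTRL, 80.8, 78.9 and 118 CPM in IM 6h and 139, 135 and 134 CPM in IM 18h. The levels of these groups did not overlap, and the 18 h libraries lay above those of 6 h. At 6 h the log2 change of 0.58 ± 0.152 (adjusted p = 0.0112) was just short of the fold threshold. At 18 h JAK2 was called at 1.13 ± 0.153 (adjusted p = 3.3e-06), a 2.19-fold rise. In nuclear RNA it rose from 69.1, 54.6 and 51.0 CPM to 159, 121 and 101 CPM, by 1.13 ± 0.151 on the log2 scale (adjusted p = 5.4e-06).

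JAK2 was not called against CTRL at any time of JTE-607. The JTE 6h libraries held 57.8, 44.2 and 58.2 CPM, which overlapped CTRL, with a log2 change of -0.22 ± 0.153 (adjusted p = 0.382). The JTE 18h libraries held 45.9, 41.2 and 42.5 CPM, all below CTRL. The 18 h change of -0.52 ± 0.153 had an adjusted p of 0.0324 and did not reach the fold threshold. JAK2 was higher in imatinib than in JTE-607 by 0.79 ± 0.153 at 6 h (adjusted p = 0.000305) and by 1.65 ± 0.156 at 18 h (adjusted p = 2.69e-08), on the log2 scale. The 6 h difference was 0.59, under the fold threshold, without the third IM 6h library.

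GAB2, the docking protein that brings SHP2 and PI3 kinase to the fusion kinase, fell under imatinib. Its mRNA stood at 60.5, 73.0 and 74.6 CPM in CTRL, 44, 46.4 and 49.1 CPM in IM 6h and 40.6, 35.3 and 35.3 CPM in IM 18h. All imatinib libraries of these times lay below CTRL, with a log2 change of -0.58 ± 0.198 at 6 h (adjusted p = 0.0479, short of the fold threshold) and -0.91 ± 0.200 at 18 h (adjusted p = 0.000817). Without low-count filtering the 6 h change passed both thresholds, at -0.62. Nuclear GAB2 fell from 86.3, 91.2 and 89.9 CPM to 53.7, 51.7 and 55.9 CPM, by a log2 change of -0.73 ± 0.118 (adjusted p = 4.03e-05).

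The JTE 18h libraries held 59.2, 59.6 and 54.6 CPM of GAB2, a log2 change of -0.26 ± 0.197 against CTRL (adjusted p = 0.470). GAB2 was lower in IM 18h than in JTE 18h by a log2 difference of -0.64 ± 0.199 (adjusted p = 0.0118). In KCl 3h the libraries held 65.0, 65.3 and 131 CPM, so 1 library was far above the others, and the change of 0.33 ± 0.196 was not called (adjusted p = 0.314).

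The adaptors GRB2 and CRKL and the phosphatase gene PTPN11 changed less. PTPN11 mRNA stood at 386, 382 and 360 CPM in CTRL and at 296, 292 and 303 CPM in IM 18h, without overlap, with a log2 change of -0.34 ± 0.0745 (adjusted p = 0.000771). Its nuclear change in IM 18h was -0.37 ± 0.116 (adjusted p = 0.0126). GRB2, the adaptor that links the fusion kinase to RAS, stood at 187, 175 and 183 CPM in CTRL and at 156, 151 and 156 CPM in IM 18h, a log2 change of -0.23 ± 0.0875 (adjusted p = 0.0340) in mRNA and -0.26 ± 0.0855 (adjusted p = 0.0161) in nuclear RNA. All of these passed the adjusted p and none the fold threshold. CRKL, a major substrate of the fusion kinase, had changes of -0.13 ± 0.104 in mRNA and -0.21 ± 0.0952 in nuclear RNA after 18 h of imatinib, with adjusted p of 0.320 and 0.0832. The nuclear CRKL change was -0.21 with an adjusted p of 0.00776 under the replicate block.

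SHC1, which couples receptors and the fusion kinase to GRB2, stood out in JTE 6h alone. It stood at 59.6, 69.9 and 67.3 CPM in CTRL and at 46.6, 52.2 and 36.4 CPM in JTE 6h, with no overlap and a log2 change of -0.54 ± 0.101 (adjusted p = 0.000375) that missed the fold threshold. The change passed that threshold, at -0.61 and -0.66, without the first CTRL or the second JTE 6h library. At 18 h of JTE-607 it was back at 62.3, 63.3 and 63.9 CPM, higher than at 6 h by 0.49 ± 0.101 on the log2 scale (adjusted p = 0.00129). SHC1 shares 7.72% of its exon bases with PYGO2 and 7.51% with a gene on the opposite strand, and pairs over both genes were not counted for either.

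In JTE 6h no member was called, against 13.2% of all genes. In that group 5 of 10 had an unadjusted p under 0.05, and DESeq2 also called 0. Shorter treatments and KCl gave no calls among the 10 genes by edgeR. In mRNA 0 of 10 were called in IM 1h (0.0166% of all genes), JTE 1h (0.851%), KCl 1h (5.45%) and KCl 3h (11.9%). In nuclear RNA 0 of 10 were called in IM 1h (0.0456%), JTE 1h (8.52%) and KCl 1h (23.8%). Without a replicate block, an unadjusted p under 0.05 was found for 1 member each in KCl 3h (ABL1) and nuclear JTE 1h (BCR) and for 0 in the others, and DESeq2 called 0 members in each. With the replicate block, the ABL1 change in KCl 3h and the BCR change in nuclear JTE 1h, given above, passed the adjusted p and not the fold threshold. So did PTPN11 in nuclear KCl 1h (log2 change 0.22, adjusted p = 0.0169) and nuclear JTE 1h (0.20, adjusted p = 0.0399). Its nuclear libraries held 386, 324 and 304 CPM in KCl 1h and 341, 328 and 329 CPM in JTE 1h against 328, 285 and 260 CPM in CTRL, higher in all 3 same-numbered pairs of each. The log2 changes of the members in nuclear KCl 1h ran from -0.16 to 0.22.

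Between time points, 0 of 10 members were called in IM 18h against IM 6h (4.41% of all genes), where JAK2 was higher by 0.56 ± 0.151 (adjusted p = 0.0250), a difference of 0.76 without the third IM 6h library. STAT5B was the 1 member of 10 called in JTE 18h against JTE 6h (13.4%), and 0 were called in KCl 3h against KCl 1h (3.29%). Between agents, JAK2 was the 1 member called in IM 6h against JTE 6h (23.8%), and 3 of 10 (JAK2, STAT5B and GAB2) were called in IM 18h against JTE 18h (30.3%). KCl 1h against JTE 1h gave 0 calls in mRNA (4.29%) and in nuclear RNA (15.9%).

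The nuclear and the mRNA responses were compared as an interaction, and 0 of 10 members were called for IM 1h (0% of all genes), IM 18h (0.0901%), JTE 1h (0.0605%) or KCl 1h (0.668%). For IM 1h edgeR called no gene, 395 genes had an unadjusted p under 0.05, and DESeq2 called 0 as well. No member had an unadjusted p under 0.05 in these 4 tests. For IM 18h the nuclear minus mRNA difference in log2 response was -0.19 ± 0.183 for STAT5A, 0.23 ± 0.153 for GAB2 and 0.05 ± 0.229 for JAK2.

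The wider pathway was read from 5 gene lists. After 18 h of imatinib, mRNA of 4 further adaptors, docking proteins and exchange factors rose and 3 fell, of 19 tested, with a list median of -0.16. GAB1 rose by 1.88 ± 0.327 and GAB3 by 1.70 ± 0.224 on the log2 scale, both docking proteins related to GAB2, which fell. The GAB1 mean went from 35.9 ± 11.1 to 132 ± 18.5 CPM and the GAB3 mean from 52.9 ± 9.81 to 172 ± 17.3 CPM (SD, n = 3). SH2B3, an inhibitor of JAK2 signalling, had a log2 change of -1.13 ± 0.376 (adjusted p = 0.0191). Its mean went from 172 ± 81.4 to 78.4 ± 4.44 CPM, a wide spread in CTRL. CBL, a ubiquitin ligase, went from 151 ± 21.8 to 99.4 ± 14.8 CPM, a log2 change of -0.60 ± 0.175, at the edge of the fold threshold.

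Of 8 kinase partners tested in mRNA, 2 rose and 2 fell in IM 18h. The SRC-family kinase LYN went from 199 ± 13.1 to 69.6 ± 4.99 CPM (log2 change -1.51 ± 0.114) and YES1 from 226 ± 37.7 to 97.0 ± 1.66 CPM (-1.22 ± 0.167), while FYN rose from 17.5 ± 2.07 to 33.6 ± 3.13 CPM (0.94 ± 0.143). Of 11 other JAK and STAT genes and their phosphatases, 3 rose and 1 fell. STAT2 rose by 1.64 ± 0.135 and STAT6 by 0.70 ± 0.151, and PTPN1, a phosphatase of JAK2, had a change of -0.80 ± 0.143. The PI3 kinase to AKT list had 1 riser (FOXO3, 1.43 ± 0.206) and 1 faller (PIK3CB, -0.63 ± 0.148) of 16, and the RAS to ERK list had 2 risers (RASA1, 0.74 ± 0.175, and MAPK3, 0.66 ± 0.157) and 1 faller (HRAS, -0.60 ± 0.161) of 12. These shares, 36.8%, 50%, 36.4%, 12.5% and 25% of the tested genes of the lists, stand beside 30.5% of all genes.

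In nuclear IM 18h the lists had 4 up and 2 down of 19, 2 up and 3 down of 9, 3 up and 1 down of 12, 2 up and 2 down of 16 and 0 up and 1 down of 12, in the same order. These are 31.6%, 55.6%, 33.3%, 25% and 8.33% of the genes tested in each list, beside 32.6% of all nuclear genes. LYN (-1.57 ± 0.122), YES1 (-1.27 ± 0.255) and STAT2 (1.42 ± 0.127) changed there in the same direction as in mRNA. Against JTE 18h, the IM 18h libraries had less STAT3 mRNA, 159 ± 14.1 against 342 ± 17.7 CPM, a log2 difference of -1.11 ± 0.120 (adjusted p = 1.88e-07). In JTE 18h against CTRL, 1 of the 11 JAK and STAT genes tested (9.09%) was called and 0 of the 19, 8, 16 and 12 genes of the other lists, beside 5.39% of all genes. The called gene was the phosphatase gene PTPN6, named here after its values were seen, which rose from 1.63 ± 0.272 to 3.33 ± 0.624 CPM (log2 change 1.03 ± 0.241, adjusted p = 0.00791). Of the JAK and STAT list, STAT4 did not pass the low-count filter in either fraction, and JAK3 did not in mRNA.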

How the data were processed

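Raw counts of read pairs per gene were deposited by the authors for 27 mRNA and 15 nuclear RNA libraries. Per the labels and the study's methods, reads were trimmed and deduplicated, aligned to GRCh38.p14 with STAR (unique alignments, introns up to 10000 bases) and counted over exons with featureCounts without a strand option, although the libraries keep strand. The annotation release is not given in the sources used here. No count column was without a sample (0), and 57532 of 58243 gene IDs were in GENCODE 44.

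Samples were grouped by their titles. The 10 members and the 5 pathway lists were chosen with earlier results of these data known. The quasi-likelihood test of edgeR 4.0.16 (R 4.3.3, robust, TMM, filterByExpr) was fitted once per fraction over all its libraries, and once per interaction over the 12 libraries concerned. This left 18095 mRNA and 21929 nuclear genes, and p-values were adjusted over all of them. Called genes met the study's thresholds, adjusted p under 0.05 and a log2 change beyond 0.6. SE is the log2 change divided by the root of F. The test was run on simulated counts in which all genes had the same scatter between libraries, which is simpler than the data. Of 100 genes given a log2 change of 1 in either direction, 97% were recovered in mRNA and 98% in nuclear RNA. Among the unchanged genes there were 11 and 8 false calls. Ratios used exact 2-sided permutation tests and, for nuclear libraries paired by replicate number, exact 2-sided sign-flip tests. Named pathway genes were the called list members with the largest change each way, up to 2 per direction and list, whose higher group averaged 10 CPM or more.

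Replicates of a group differed by more than sampling noise (chi-square per gene 2.38 to 63.1). The labels call them biological replicates of 1 line. Replicate numbers paired the nuclear libraries, where deviations of same-numbered libraries from their group means correlated with those of CTRL at 0.235 to 0.891 over 9308 genes. As labelled, the mRNA numbers did not pass this check (-0.368 to 0.877, at most 1 pair of 3 over 0.1 in a comparison). The numbers of the first and second mRNA CTRL libraries are in doubt, since the study lists their totals under each other's number, so whether the mRNA cultures were paired is not known. Alternatives were DESeq2 1.42.0, relative log expression scaling, no filter, no fold threshold, only the libraries compared, thinned counts, a replicate block and leaving out each library. Counting error is small at these depths, and the number of libraries limits the precision.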

Additional observations from a re-analysis of the deposited data

Results flagged for a closer look

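The direct comparisons of agents and times gave 5 differences past both thresholds (edgeR, 3 against 3 libraries, no overlap). JAK2 mRNA was higher in IM 6h than in JTE 6h by 0.79 on the log2 scale (adjusted p = 0.000305) and in IM 18h than in JTE 18h by 1.65 (adjusted p = 2.69e-08). STAT5B mRNA was higher in IM 18h than in JTE 18h by 0.96 (adjusted p = 0.000572), and its JTE 18h level differed from JTE 6h by -0.71 (adjusted p = 0.0144). GAB2 mRNA differed between IM 18h and JTE 18h by -0.64 (adjusted p = 0.0118). Each compares different cultures of the same line. The second STAT5B difference was lost without the second JTE 18h library or the third JTE 6h library, and the JAK2 difference at 6 h fell under the fold threshold, to 0.59, without the third IM 6h library.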

How the results depend on the processing

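Of the 13 calls of members, all kept their direction in every fit. All 13 stayed past both thresholds under the other normalization, no filter, DESeq2, the libraries compared alone, thinned counts and the replicate block. Dropping the fold threshold keeps every call by construction. With the replicate block, 3 members were called in nuclear IM 18h (STAT5A -1.14, JAK2 1.12, GAB2 -0.73), and it changed no other count of members called. In mRNA the block uses CTRL numbers that are in doubt. Without the filter 2 members were called in mRNA IM 6h and 1 in JTE 6h. Without the fold threshold the counts were 3 in mRNA IM 6h, 5 in mRNA IM 18h, 2 in JTE 6h, 2 in JTE 18h, 6 in nuclear IM 18h, 1 in IM 18h against IM 6h, 2 in JTE 18h against JTE 6h, 4 in IM 6h against JTE 6h and 5 in IM 18h against JTE 18h. By construction that setting counts members with a small change. Leaving out 1 library at a time gave 1 to 2 members in mRNA IM 6h, 0 to 2 in JTE 6h, 1 to 2 in JTE 18h, 0 to 1 in IM 18h against IM 6h, 0 to 2 in JTE 18h against JTE 6h and 0 to 2 in IM 6h against JTE 6h. JAK2 joined in mRNA IM 6h in 4 of these fits (without CTRL 2 or 3, or IM 6h 1 or 2) at 0.61 to 0.65, and in JTE 18h without the first CTRL library at -0.65. Beyond the cases named, the cause was not tested. Among alternative counts for the pathway lists, 212 lay within 1.5 times the main count and 35 did not. The median of all genes moved by over 0.1 in the KCl 1h interaction, by 0.205 with DESeq2 and 0.114 without the filter, where no member was called. Both settings also change which genes enter the median, and the part due to scaling was not tested. In mRNA IM 6h, STAT5A ranged from -0.98 to -0.58 over all fits.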

Other observations

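STAT5B was lowest in the first CTRL library, at 219 CPM, and in the second library of IM 1h (207 CPM), IM 6h (210), JTE 1h (212), KCl 1h (211), KCl 3h (235), JTE 6h (252) and JTE 18h (180). In IM 18h it was lowest in the third library (336 CPM). The nuclear CTRL libraries held 284 to 324 CPM.

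Between members, the 9 mRNA group means of JAK2 ran opposite to those of PTPN11 (Pearson's r = -0.923) and GRB2 (-0.879), and those of GRB2 and PTPN11 ran together (0.884). The points share libraries, and these values are a description. The PTPN11 nuclear level differed between same-numbered libraries in a like way, being highest in the first library of CTRL (328 CPM), IM 1h (387), JTE 1h (341), KCl 1h (386) and IM 18h (241).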
